A study of Caenorhabditis elegans with 2 samples.

Results

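The genes described are 10 genes of C. elegans glia that are linked to MLS-2 or used as markers and regulators of ensheathing glia. They were taken by name from 19973 protein-coding genes: hlh-17, hlh-31, hlh-32, vab-3, ptr-10, pros-1, lin-26, daf-6, kcc-3 and ztf-16. A region was given to a gene when its summit lay inside the gene body or at most 5 kb from any 5′ end of its protein-coding transcripts. Lists of regions from chromatin immunoprecipitation sequencing (ChIP-seq) were made from whole mixed-stage embryos, pooled for sex and taken 2 h after egg bleaching, in 1 group of 2 biological replicates without a second condition. All worms were of strain OP645, in which the integrated transgene wgIs645 supplies MLS-2 fused to GFP-FLAG at its C terminus in an unc-119(tm4063) III background, and an antibody against GFP was used for the precipitation. The labels do not say which cells expressed the fusion or which promoter drove it. CEPsh glia are a small part of such embryos, so a region at a gene cannot be assigned to a cell type. The lists carry no read totals, so the depth behind each region is unknown.

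CEPsh glia are the sheath glia of the cephalic sensory organs, which wrap the tips of CEP dendrites and send thin processes around the nerve ring. MLS-2 belongs to the HMX/NKX5 group of homeodomain transcription factors, and genetic work placed it together with the Pax6 protein VAB-3 upstream of hlh-17 in these cells. The other genes act in several kinds of ensheathing glia, in the shape of the glial channel around sensory endings, or in the choice between glial, epithelial and neuronal fate.

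Of the 10 genes, 3 had a summit in the authors' thresholded (optimal) list of 1925 peaks: vab-3, pros-1 and ztf-16. All 3 stood near the end of that list, at ranks 1837, 1892 and 1917 by signal. The pros-1 summit lay inside a tRNA gene in an intron. lin-26 had its strongest region below the threshold, at rank 3198 of 30000 in the list of both replicates pooled, and daf-6 had only weak regions. ptr-10, kcc-3, hlh-17, hlh-31 and hlh-32 had no region in the pooled list, and the 3 hlh genes had none in the list of either replicate. Among all protein-coding genes, 17% had a summit in the optimal list by the same rule, and with 10 genes 1 call more or less moves the share by 10 percentage points.

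The sequences at the best pooled region of 4 genes are shown, because these 4 genes had the strongest best regions of the 10. Each is 75 bp on either side of the pooled summit, read from WBcel235 (ce11) along the strand of the gene. They lie at chrX:10502852-10503002 (vab-3, plus strand), chrIII:8069379-8069529 (pros-1, plus strand), chrX:4813069-4813219 (ztf-16, minus strand) and chrII:7679453-7679603 (lin-26, plus strand). Capitals mark the tRNA gene K12H4.t1 in the pros-1 stretch, and in the others the matches to the 6 motifs searched, which are TAATTA at vab-3, GAGAGA read on the other strand at ztf-16 and GGGCGG read on the other strand at lin-26.
vab-3: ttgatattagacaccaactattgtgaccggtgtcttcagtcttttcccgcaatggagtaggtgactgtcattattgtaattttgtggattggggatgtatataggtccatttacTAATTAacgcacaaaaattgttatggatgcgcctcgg
pros-1: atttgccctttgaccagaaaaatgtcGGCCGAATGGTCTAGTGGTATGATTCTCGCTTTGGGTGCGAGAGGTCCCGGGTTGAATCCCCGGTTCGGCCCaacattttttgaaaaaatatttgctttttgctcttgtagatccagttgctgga
ztf-16: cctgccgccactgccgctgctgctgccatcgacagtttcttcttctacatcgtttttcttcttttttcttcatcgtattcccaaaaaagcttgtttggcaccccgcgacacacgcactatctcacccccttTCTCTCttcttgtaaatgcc
lin-26: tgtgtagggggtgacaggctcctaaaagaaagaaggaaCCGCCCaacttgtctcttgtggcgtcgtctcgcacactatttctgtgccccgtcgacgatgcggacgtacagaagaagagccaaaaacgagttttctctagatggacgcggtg

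vab-3 encodes the worm Pax6 protein, a paired-domain and homeodomain factor of head development, and it acts with mls-2 in CEPsh glia. The gene spans chrX:10499890-10519580 on the plus strand, 19691 bp, with 4 annotated 5′ ends. Its optimal peak at chrX:10502692-10503161 had a signal of 218 in the pooled list, against 212 for the last peak of the optimal list, 290 for the median optimal peak and 2650 for the strongest. This signal is a score that the authors' peak caller gave, of unstated scale, and it ranks regions within a list only. The summit lay in the first intron, which is 5790 bp long, 3037 bp downstream of the first 5′ end and 2969 bp upstream of the next. In replicate 1 the same place had rank 1988 and a signal of 143, with the summit 5 bp away. In replicate 2 it had rank 3010 and a signal of 67.3, 15 bp away. Both replicates therefore placed a summit there, and neither ranked it among its own 1925 strongest regions.

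The rest of vab-3 carried a series of weaker regions. The pooled list held 13 summits in its window, which at 26114 bp is the longest of the 10, or 0.498 per kb. Of these, 11 were in introns, 1 in an exon and 1 past the 3′ end. The next by rank were at 3016 (signal 175, in an intron 345 bp downstream of a 5′ end) and 3810 (signal 159, 2321 bp downstream of another 5′ end). No pooled summit lay in the 64.0 kb upstream of the first 5′ end, and in replicate 2 the first one upstream was 16.9 kb away. Replicate 1 also held 13 summits in the window and replicate 2 held 17.

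ztf-16 encodes an Ikaros-like zinc-finger protein that regulates gene expression and remodelling of amphid sheath glia. It spans chrX:4805998-4811540 on the minus strand. Its optimal peak at chrX:4812909-4813378 had a pooled signal of 213 and rank 1917, with the summit in intergenic sequence 1604 bp upstream of the 5′ end. No other gene had a 5′ end nearer to it. Replicate 1 gave the place rank 2225 (signal 137, summit 20 bp away). The nearest summit of replicate 2 was 111 bp away, beyond the 100 bp within which summits were counted as the same, at rank 2188 (signal 75.4). It lay between the optimal summit and a weaker pooled summit at rank 19248, and was nearer to the weaker one. Both ranks were outside the 1925 strongest regions of the replicate. Of the 5 other pooled summits of ztf-16, 4 were in introns. The strongest was at rank 8342 (signal 115), 471 bp downstream of the 5′ end, with a TAATTA match within 25 bp. TAATTA lay within 25 bp of 1.57% of all pooled summits.

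The ztf-16 summit lay 51.5 kb from the nearer end of mls-2, the gene whose product the transgene carries. mls-2 had 5 optimal summits by the same rule, the strongest at rank 41 (signal 1040). Between the mls-2 gene and the ztf-16 summit there were 3 other optimal summits, of which those at ranks 645 and 696 are counted with mls-2. The pooled list held 0.369 summits per kb over this stretch and 0.265 per kb over the whole X chromosome. The first value includes summits that the rule gives to mls-2 and to ztf-16, and a density without them was not taken. The summits of the stretch were not evenly spread. No pooled summit lay between 25.555 kb and 48.513 kb from the outermost ztf-16 5′ end on the mls-2 side. The sources used here do not give the extent of the transgene. The part of transgene copies in the mls-2 and ztf-16 signals was not tested.

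pros-1 encodes the Prospero homeodomain protein, which controls secreted proteins of amphid sheath glia. It spans chrIII:8067289-8071463 on the plus strand. Its optimal peak at chrIII:8069219-8069688 had a pooled signal of 214 and rank 1892. The summit fell on base 50 of the 72-bp tRNA gene K12H4.t1 (chrIII:8069405-8069476), which sits on the same strand in the 161-bp intron between exons 6 and 7 of 10. Replicate 1 placed the summit 2 bp away, also inside the tRNA gene, with rank 1874 and a signal of 147. Replicate 2 placed it 76 bp away, 27 bp before the tRNA gene, with rank 3515 and a signal of 63.7. pros-1 was the only one of the 10 genes with a summit among the 1925 strongest regions of replicate 1.

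The whole tRNA sequence occurs once in the genome, but of the 36-base words that lie wholly inside it only 48.6% occur once. Of 612 tRNA genes, 198 (32.4%) had an optimal summit within 200 bp, and of the 290 that lie inside a protein-coding gene 93 (32.1%) had one. Away from the tRNA gene, the strongest pooled region of pros-1 was at rank 10402 (signal 104), 3490 bp upstream of the 5′ end. When summits within 200 bp of a tRNA, small nucleolar, small nuclear or microRNA gene were left out, 289 of the 1925 optimal peaks (15.0%) fell away. Of the 10 glial genes 2 then had a summit, vab-3 and ztf-16, against 14.7% of all protein-coding genes.

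**Figure D1:**
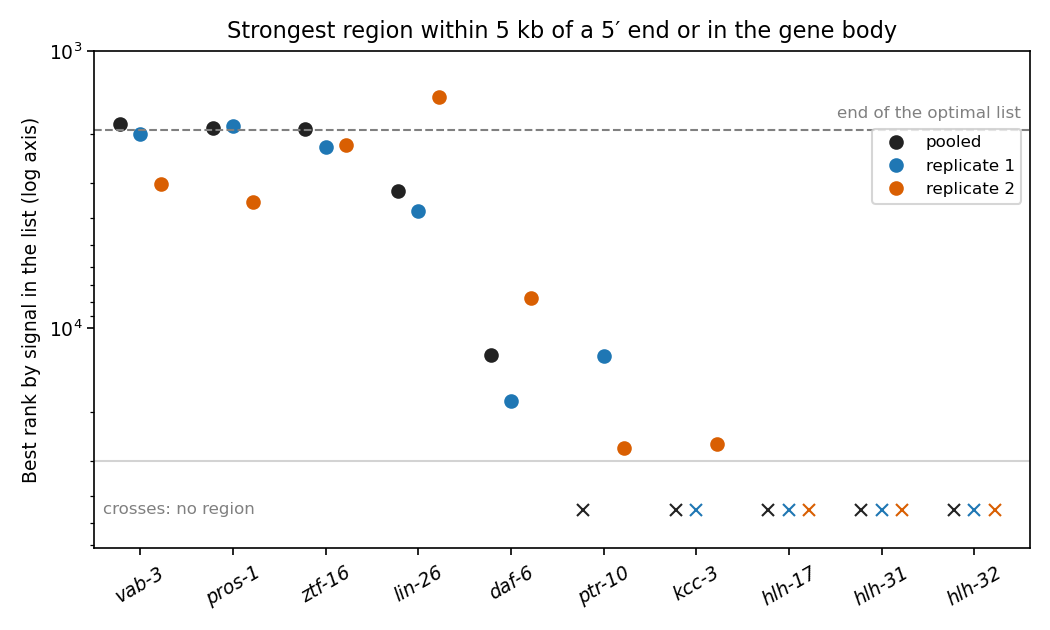
Best rank by signal of any region at each of the 10 genes (log axis, strongest at the top) in the pooled list and in each replicate list, where crosses mark genes with no region in that list. The dashed line is the end of the 1925-peak optimal list: vab-3, pros-1 and ztf-16 sit just above it in the pooled list at ranks 1837, 1892 and 1917, and the 3 hlh genes show only crosses.

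lin-26 encodes a zinc-finger protein needed for epithelial and glial fate. It spans chrII:7682198-7684764 on the plus strand, directly downstream of its relative lir-1. None of its regions was in the optimal list. The strongest in the pooled list had a signal of 171 at rank 3198, with the summit 2670 bp upstream of the nearest lin-26 5′ end. The next had signals of 159 (rank 3814) and 152 (rank 4310). Of the 10 pooled summits in the lin-26 window, 7 lay inside the annotated body of lir-1, and only 1 was nearer to a lin-26 5′ end than to that of any other gene. The density of 0.973 summits per kb was the highest of the 10 genes.

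The replicates put the strongest lin-26 region in different places. In replicate 1 its best region had rank 3791 (signal 111), 5 bp from the pooled summit. In replicate 2 the best region was another one, near the weakest of those 3 pooled summits, at chrII:7677601-7678070, with rank 1472 and a signal of 87.8, 4362 bp upstream of the nearest 5′ end and inside lir-1. This was the only region of the 10 genes among the 1925 strongest of replicate 2. The nearest optimal peak lay just outside the window, 5520 bp upstream at rank 973 (signal 289), in an intron of lir-1.

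**Figure D2:**
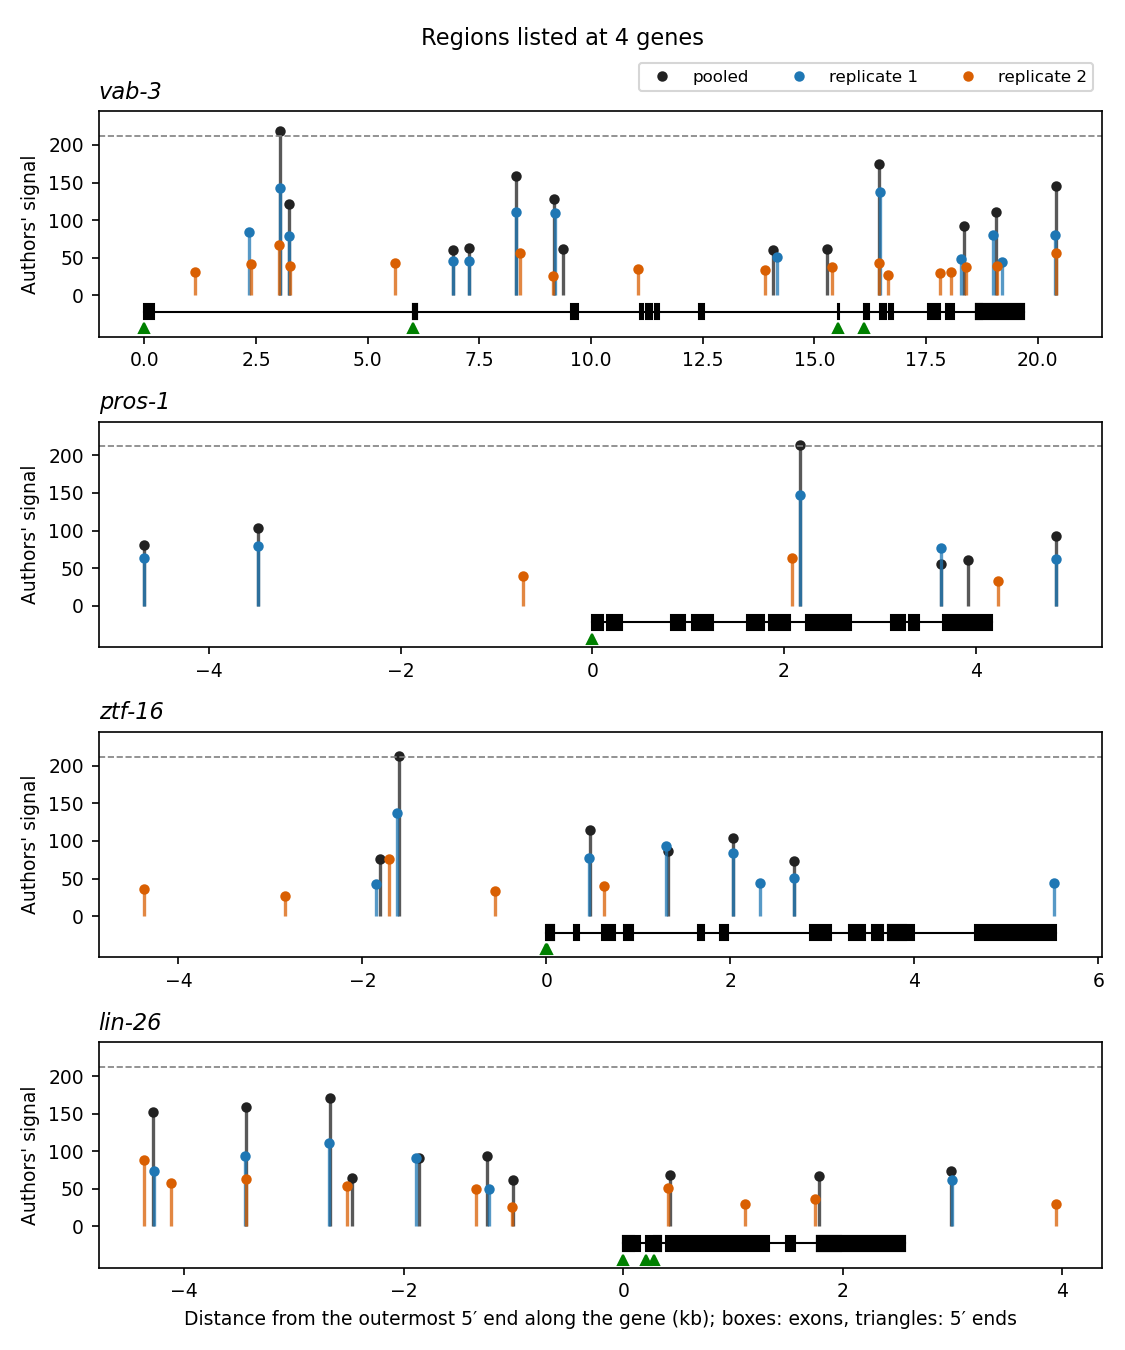
Regions at vab-3, pros-1, ztf-16 and lin-26, placed by distance of the summit from the outermost 5′ end along the gene (kb), with the authors' signal as height in each list, exons as boxes and 5′ ends as triangles. The dashed line is the lowest optimal signal of 212, which applies to the pooled list only. One pooled region each passes it at vab-3, pros-1 and ztf-16, and none at lin-26, whose regions lie mostly upstream of the gene.

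daf-6 encodes a patched-related membrane protein that limits the size of the glial channel around sensory endings. It spans chrX:14888488-14894326 on the plus strand. Its pooled regions had signals of 95.7, 81.2 and 62.1, at ranks 12462, 16877 and 25374. The strongest lay 2147 bp upstream of the 5′ end, and both replicates had a summit near it, 5 bp away at rank 19088 in replicate 1 and 50 bp away at rank 7801 in replicate 2. Of all protein-coding genes, 52.5% had a pooled region of rank 12462 or better. The best daf-6 region of replicate 1 was an intronic one at rank 18284. The nearest optimal summit was 69588 bp away.

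ptr-10, another patched-related gene whose reporter marks ensheathing glia, had no pooled region. It spans chrI:5662143-5667160. Each replicate listed 1 weak region at the far edge of its window, at rank 12611 (signal 67.1, 4805 bp upstream) in replicate 1 and rank 26979 (signal 25.9, 4471 bp upstream) in replicate 2. Both lay inside the neighbouring gene wdr-12, nearer to its 5′ end. The nearest pooled summit was 14600 bp from a ptr-10 5′ end, and the nearest optimal summit 24264 bp.

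kcc-3 encodes a potassium-chloride cotransporter of amphid sheath glia, and spans chrII:7425939-7434282 on the minus strand. It had no region in the pooled list or in replicate 1. Replicate 2 listed 1 intronic region at rank 26026 (signal 26.5), near the low end of that list, where the lowest signal was 24.0. The nearest pooled summit was 12636 bp away and the nearest optimal summit 44601 bp.

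hlh-17, hlh-31 and hlh-32 encode basic helix-loop-helix proteins related to vertebrate Olig factors, and hlh-17 reporters are the usual marker of CEPsh glia. hlh-17 (chrIV:16254764-16256274) and hlh-31 (chrIV:16257630-16259534) stand in tandem, 1355 bp apart, and hlh-32 (chrIV:16132464-16134290) lies 120473 bp before them on the same strand. No list held a summit within 5 kb of any of the 3. For hlh-17 the nearest summit was 61481 bp away in the pooled list (rank 22374), 55665 bp in replicate 1 (rank 25454) and 20876 bp in replicate 2 (rank 20207). For hlh-31 these distances were 58615 bp, 52799 bp and 23742 bp. For hlh-32 they were 35991 bp, 35759 bp and 35989 bp, in each case to a summit near gln-3. These summits had rank 9096 in the pooled list, 6390 in replicate 1 and 16747 in replicate 2. That of replicate 1 lay more than 100 bp from the pooled one, so it did not count as the same summit. Another replicate 1 summit, 35.968 kb from the hlh-32 5′ end, lay within 100 bp of the pooled one.

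These genes sat in some of the longest stretches without a summit. The pooled list left 146 kb free around hlh-17 and hlh-31, and only 7 of 29994 stretches between neighbouring pooled summits were as long or longer, that one included. Around hlh-32 it left 143 kb, with 9 stretches as long or longer. The median stretch was 1375 bp. Replicate 1 left 140 kb and 143 kb free at these places, and replicate 2 left 59.1 kb and 136 kb. Within 50 kb of the 5′ end, hlh-17 and hlh-31 had 0 pooled summits, a state shared by 1.41% of all protein-coding genes, and hlh-32 had 5, against a median of 25 over all genes. In replicate 2, hlh-17 had 4 and hlh-31 had 6, against a median of 27. The optimal list left 358 kb free around all 3 genes.

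**Figure D3:**
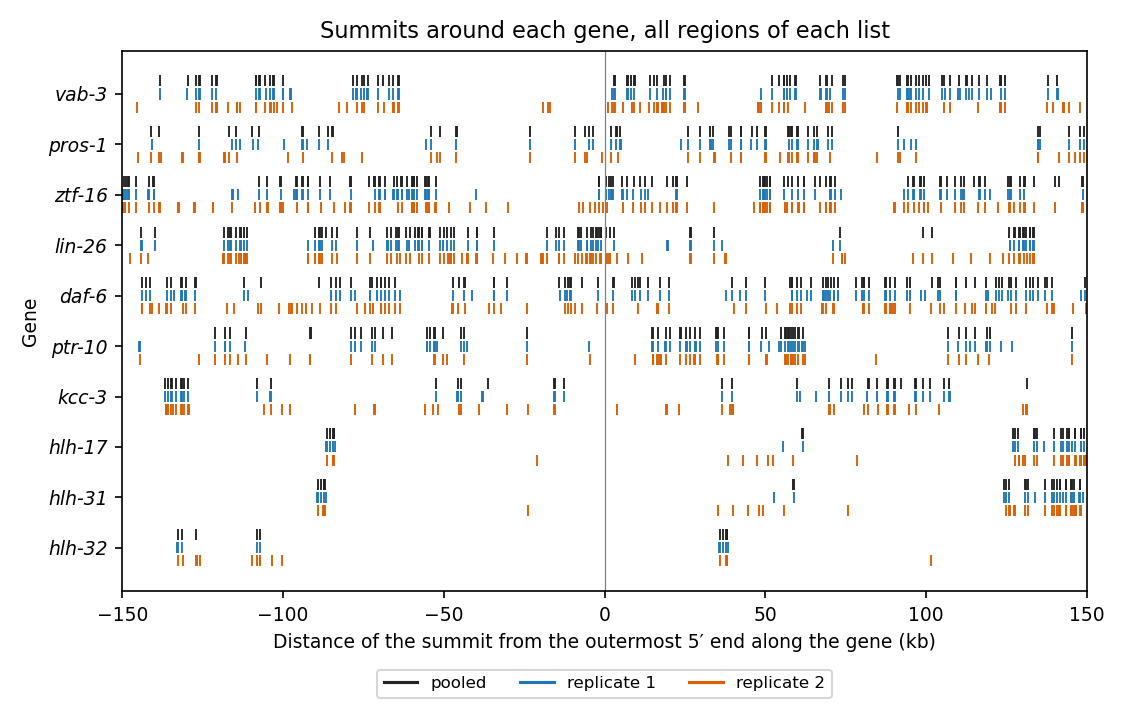
Every summit of the pooled list and of each replicate list within 150 kb of the outermost 5′ end of each gene, by distance along the gene (kb), 1 tick per summit. The 3 hlh genes stand in wide gaps, of 146 kb and 143 kb in the pooled list, and vab-3 has none in the 64.0 kb upstream in that list, while pros-1, ztf-16, lin-26 and daf-6 have summits on both sides.

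The 3 hlh genes are close copies of each other in part, which bears on whether reads can be placed. The second exon, which is coding in full, is shown because it is nearly the same in all 3. It is 133 bp in each gene, at chrIV:16255552-16255684, chrIV:16258833-16258965 and chrIV:16133605-16133737, and capitals mark the 10 positions at which the copies are not all the same.
hlh-17 exon 2: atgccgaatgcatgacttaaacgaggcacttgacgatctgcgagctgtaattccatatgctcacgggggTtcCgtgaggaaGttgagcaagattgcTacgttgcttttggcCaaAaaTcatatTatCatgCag
hlh-31 exon 2: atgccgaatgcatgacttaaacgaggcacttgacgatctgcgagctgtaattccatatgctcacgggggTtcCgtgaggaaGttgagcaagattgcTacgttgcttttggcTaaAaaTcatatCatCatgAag
hlh-32 exon 2: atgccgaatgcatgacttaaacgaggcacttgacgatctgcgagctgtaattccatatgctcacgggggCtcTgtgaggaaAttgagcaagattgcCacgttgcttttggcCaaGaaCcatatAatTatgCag

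hlh-17 and hlh-31 were identical at 130 of the 133 positions (97.7%), hlh-17 and hlh-32 at 125 (94.0%) and hlh-31 and hlh-32 at 123 (92.5%). Over the aligned coding sequence the identity was 91.4%, 83.8% and 83.2% for the same pairs. Exact sharing was limited: of the 36-base words in the hlh-17 gene body, 5.96% were also in that of hlh-31 and 2.51% in that of hlh-32. With 5 kb upstream included, hlh-17 shared 55.7% of its words with hlh-31, since the upstream sequence of hlh-31 contains hlh-17 itself.

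Across the whole windows, 94.7% of the 36-base words of hlh-17 occurred once in the genome, 83.8% of those of hlh-31 and 76.7% of those of hlh-32. For kcc-3 the share was 83.5% and for ptr-10 97.9%, which is also the median over all gene windows. The 5 genes with a pooled region had from 99.5% at daf-6 to 100% at lin-26 and ztf-16. These 5 genes stood above the 5 without a pooled region, but no such split was counted over all genes. From hlh-32 to hlh-31 as a whole, 91.6% of words occurred once, against 92.1% of the genome. The sources used here give neither the read length nor the treatment of reads with several matches, and the part of repeated sequence in the missing regions was not tested.

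**Figure D4:**
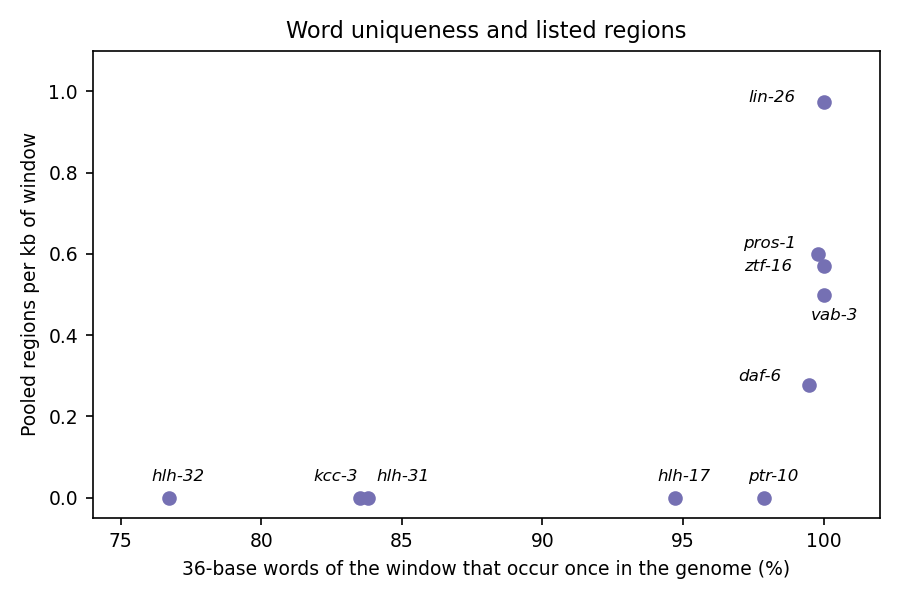
Share of 36-base words in each gene's window that occur once in the genome (%, horizontal axis, which starts at 74) against pooled regions per kb of that window, 1 point per gene. The 5 genes without a pooled region lie between 76.7% and 97.9%, and the 5 with regions lie at 99.5% or more. No such split was counted over all genes.

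How many of the 10 genes had a region depended on the list, and the share of all genes moved with it. In the pooled list of 30000 regions 5 of the 10 had one, against 67.4% of all protein-coding genes. In the full list of replicate 1 it was 6, against 70.0%, and in that of replicate 2 it was 7, against 79.3%. Among the 5000 strongest regions 4 had one in the pooled list, against 32.6%, with the same 4 genes in replicate 1, against 32.7%, and in replicate 2, against 33.4%. These were vab-3, pros-1, ztf-16 and lin-26. Having a region of that strength in both replicates was seen in 25.2% of all genes.

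With as many regions taken from each replicate as there were optimal peaks, the count fell to 1 in each, and the gene was not the same. It was pros-1 in replicate 1, against 17.1% of all genes, and lin-26 in replicate 2, against 16.8%. None of the 10 had such a region in both replicates, against 13.2% of all genes. All 3 optimal calls were thus made on pooled signal and not in both replicates at equal list length. The windows of the 10 genes had a median length of 10210 bp, against 10001 bp over all genes. The gene bodies of the 10 were longer, with a median of 4596.5 bp against 2027 bp over all genes. Of the 10 genes, 3 lie on the X chromosome, where 23.1% of genes had an optimal summit, and 3 on chromosome IV, where 14.3% had one.

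**Figure D5:**
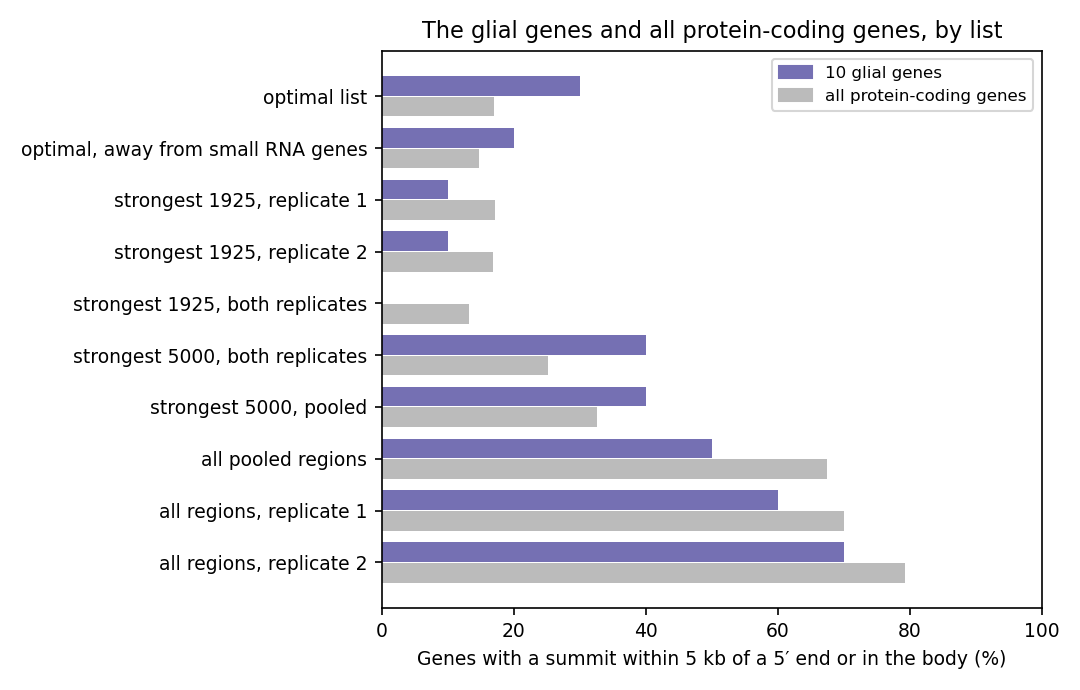
Share of the 10 glial genes and of all 19973 protein-coding genes with a summit by the same rule (%), for 10 choices of list. The glial genes stand at 30% against 17% in the optimal list and at 0% against 13.2% among the 1925 strongest regions of both replicates.

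Both strands around the summits were searched for 6 motifs. Of those linked to homeodomain proteins, CAATTAA was taken for the HMX type, CAAGTG for the NKX type and TAATTA as the common homeodomain core. The others were GAGAGA, the GC-rich GGGCGG, and the GATA-type TGATAA. The best pooled region of each of the 5 genes that had any was taken, and only that of vab-3 had a homeodomain motif within 50 bp of the summit, a match to the common core. That core lay within 50 bp of 3.64% of optimal summits and 3.29% of all pooled summits, CAATTAA of 1.71% and 2.38%, and CAAGTG of 5.77% and 4.67%. CAATTAA and TAATTA can overlap in part, and TAATTA reads the same on both strands. The G and C content within 50 bp was 40.6% at the vab-3 summit, 43.6% at ztf-16, 48.5% at pros-1 and 52.5% at lin-26, against a median of 49.5% for optimal and 42.6% for pooled summits. GGGCGG lay within 50 bp of the lin-26 and daf-6 summits and of 4.61% of pooled summits. GAGAGA lay within 100 bp of the ztf-16 summit and of 40.9% of optimal summits. TGATAA lay within 50 bp of none of these 5 summits and of 5.09% of pooled summits.

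The 2 kb before the outermost 5′ end held such motifs also in genes without a region. CAATTAA occurred there in 5 of the 10 genes, against 46.2% of all protein-coding genes: once each in hlh-17 (1201 bp upstream), hlh-31 and vab-3, and 2 times each in hlh-32 and daf-6. CAAGTG occurred in 3, against 57.3%, with 2 matches in hlh-17, 2 in pros-1 and 4 in ptr-10. TAATTA occurred in 8, against 64.7%. A match is a stretch of letters, and whether MLS-2 binds there was not tested.

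The wider gene lists gave counts near or below the background except for 1 short list. Of 24 other glial genes, 3 had an optimal summit (12.5%): mls-2, lit-1 and ttx-1. This count includes mls-2, whose product the transgene carries, and the part of transgene copies in its summits was not tested. lit-1, a Nemo-like kinase gene that acts in the same shaping of the glial channel as daf-6, had 4 optimal summits at ranks 504, 534, 539 and 1662, of which 3 were in introns. ttx-1, an Otx-family homeobox gene, had 1 at rank 483 (signal 394) in an intron, 291 bp upstream of a 5′ end, with ranks of 476 and 491 in the replicates. All summits of lit-1 and ttx-1 but the weakest lit-1 summit ranked far above the 3 peaks at vab-3, pros-1 and ztf-16.

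Of 29 other patched-related genes, the family of ptr-10 and daf-6, 3 had one (10.3%): ptc-1, the worm Patched gene, at rank 1908, ptr-5 at rank 691 and ptr-13 at rank 911, the last beside the tRNA gene K07C10.t1. None of the 9 other Pax genes and none of the 3 other cation-chloride cotransporter genes had one. Of 5 relatives of ztf-16 and lin-26, 4 had one. They were hbl-1, an Ikaros-like hunchback homologue, with 3 summits at ranks 507, 1536 and 1898 upstream of the gene, lir-1 with 3 at ranks 973, 1508 and 1739, lir-2, which shares the last of these with lir-1, and lir-3 at rank 1527, 241 bp upstream of its 5′ end. With 5 genes, of which 2 share a peak, this is a description only.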

How the data were processed

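The files were ChIP-seq region lists in narrowPeak format for 2 biological replicates of 1 group. Per the deposited file descriptions, each replicate list and the pooled list hold peaks and background prepared as input for the irreproducible discovery rate step, 30000 regions each, derived from the replicate alignments and a further file that the descriptions do not explain. The optimal list holds 1925 thresholded peaks and proved to be the same as the 1925 strongest pooled regions. The control experiment that the labels name as possible was not analysed here. The sources used here do not give the aligner, peak caller, threshold or versions.

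The deposited signal per region has no stated scaling and ranked regions within a list. The deposited −log10 q per region was not used for ranking. Ranks count the mitochondrial regions of replicate 2, which were otherwise left out. Read totals are not given, so the depth per sample and its precision are unknown. The ce10 lists were not used.

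Genes and 5′ ends came from Ensembl release 115 for WBcel235 (ce11), sequences from the RefSeq WBcel235 genome. A small RNA gene was a tRNA, snoRNA, snRNA or miRNA gene within 200 bp of a summit, and a summit within 100 bp counted as the same. No statistical test was made: counts of the 10 genes stand beside the share of all 19973 protein-coding genes meeting the same rule. Named genes are the 10, mls-2, the gene with the nearest 5′ end or small RNA gene at their summits, and listed genes with an optimal summit. wdr-12 and gln-3 were named after their values were seen. The genes, lists and rules were chosen with earlier results of these data known. Identity of the hlh genes was taken over coding sequence, in place of the planned proteins. Gene assignment was tested on simulated summits. Python 3.11.15, pandas 2.3.3, numpy 2.4.6, Biopython 1.88 and matplotlib 3.10.9 were used.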

Additional observations from a re-analysis of the deposited data

How the results depend on the processing

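The count of 3 genes with an optimal summit moved between 2 and 4 with windows of 1, 2 and 10 kb, without the gene body or with it alone, with overlap of the interval, with the outermost 5′ end, with the nearest gene only, without summits near small RNA genes and with the 5000 strongest regions, pooled or in both replicates (the last added after the data were seen). For the other windows and assignment rules the share of all genes was not counted, so these counts do not show stability. The count was 0 among the 962 strongest optimal peaks, where few genes of any kind are called. Of all protein-coding genes, 9.92% had a pooled region of rank 1000 or better. The count was 1 with the 1925 strongest regions of either replicate alone in place of the optimal list, pros-1 without replicate 2 and lin-26 without replicate 1. It was 0 for the 1925 strongest regions of both replicates at once, also added after the data were seen. ztf-16 was lost at 1 kb and with the gene body alone, and lin-26 was gained at 10 kb. Of the 5 genes with a pooled region, 3 had a summit of both replicates within 100 bp of the best pooled one (vab-3, pros-1 and daf-6). The count was 2 within 50 bp and 5 within 250 bp. The pooled list was made from the same replicates, and the share over all genes was not counted. The 1 motif match among the best regions was at 0 within 25 bp and 1 within 100 bp. The causes of these moves were not tested, apart from the fewer or more regions each choice admits. No paired analysis was possible because there is 1 group. Without replicates of a second condition, a control or read totals, a missing region shows only that none was listed in whole embryos.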
